A study of Arabidopsis thaliana with 8 samples.

Results

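The 10 genes described here encode RNA-degrading enzymes and their partners in Arabidopsis thaliana: 4 of the RNA exosome (RRP6L1, RRP6L2, RRP4 and HEN2), 3 of decapping (DCP1, DCP2 and VCS) and 3 exonucleases of the XRN family (XRN2, XRN3 and XRN4). They are listed by locus identifier, with no threshold on their values, and are 10 of the 32232 loci in the deposited expression table. All 10 were found and all passed the filter on low values (1 FPKM or more in 2 or more libraries), as did 14351 loci in all. FPKM is the number of fragments scaled to the length of the transcript and to the size of the library, so it is a level per length that is relative within a library.

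The study sequenced RNA of inflorescences depleted of ribosomal RNA, in 4 groups of 2 libraries. These were the mutant dbr1-2 without RNase R, the wild type Col-0 without RNase R, dbr1-2 with RNase R and Col-0 with RNase R. The tags of all libraries except dbr1-2 RNase R replicate 1 also name removal of mRNA. Whether that library was prepared differently is not known. All plants were kept at 22 °C under 16 h light and 8 h dark, and digestion with RNase R lasted 2 h at 37 °C. DBR1 is the lariat debranching enzyme, and RNase R is a bacterial exonuclease that digests linear RNA from the 3′ end and leaves circles and the loops of lariats. The labels do not say what the dbr1-2 allele changes or whether replicate libraries are separate plants, so p-values may measure technical spread only.

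RNA is degraded from both ends. The exosome is a ring of subunits that, with its catalytic partners, digests RNA from the 3′ end in the nucleus and the cytoplasm, and helicases such as HEN2 feed it nuclear transcripts. In the cytoplasm the decapping complex removes the 5′ cap, after which XRN4 digests the body of the mRNA from the 5′ end, while XRN2 and XRN3 act in the nucleus. An intron lariat has no free 5′ end and is opened by the debranching enzyme before such exonucleases can digest it.

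Without RNase R, DBR1 (AT4G31770) had 0.339 and 0.430 FPKM in dbr1-2 and 0.662 and 0.694 FPKM in Col-0, below the filter. After digestion it had 0.265 and 0.260 FPKM in dbr1-2 and 0.202 and 0.188 FPKM in Col-0. For a transcript with 1 kb of effective length, 1 FPKM stood for about 8.64 to 12.8 reads in the libraries with RNase R and 74.0 to 89.3 in those without. The summed level of 8 inflorescence markers was 71.5 to 76.0 FPKM in dbr1-2 and 71.6 to 74.1 FPKM in Col-0 before digestion, and 26.0 to 26.2 FPKM in dbr1-2 and 30.7 to 32.6 FPKM in Col-0 after it. Behind the near-equal sums before digestion, PI was higher in dbr1-2 (21.3 and 20.4 FPKM, against 14.8 and 15.0 FPKM in Col-0) and SEP3 lower (11.8 and 11.4 FPKM, against 16.5 and 15.9 FPKM in Col-0). The summed level of 3 root markers was at most 0.381 FPKM in any library. The 4 mature pollen markers summed to 5.05 to 5.63 FPKM in dbr1-2 and 16.4 to 17.6 FPKM in Col-0, and the 4 green tissue markers to 1596 to 1679 FPKM in dbr1-2 and 959 to 1159 FPKM in Col-0. Of these 4, RBCS1A made up most of the sum in dbr1-2, and LHCB1.1 went the other way, with 102 and 103 FPKM in dbr1-2 and 143 and 151 FPKM in Col-0. After digestion the pollen sums were 3.07 to 4.70 FPKM in dbr1-2 and 7.76 to 8.15 FPKM in Col-0, and the green tissue sums 301 to 516 FPKM in dbr1-2 and 278 to 286 FPKM in Col-0. No pollen or green tissue marker was at 0 in a whole group, and the part of these differences in the results was not tested. In such bulk samples fewer cells of a type and less RNA per cell cannot be told apart.

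All 10 genes hold introns, from 6 in RRP4 to 22 in XRN3. RRP6L1 (AT1G54440) lies on chromosome 1, plus strand, positions 20322964 to 20328238 of the TAIR10.1 annotation, with 13 exons and 12 introns in its longest transcript. The other exosome genes are RRP6L2 (AT5G35910, minus strand of chromosome 5, 14029574 to 14035493, 13 introns), RRP4 (AT1G03360, plus strand of chromosome 1, 824517 to 826399, 6 introns) and HEN2 (AT2G06990, plus strand of chromosome 2, 2894904 to 2902020, 15 introns). DCP1 (AT1G08370) spans 2638037 to 2640663 on chromosome 1 with 7 introns, DCP2 (AT5G13570) 4367262 to 4370429 on chromosome 5 with 7 introns and VCS (AT3G13300) 4303822 to 4310275 on chromosome 3 with 10 introns, all on the plus strand. XRN2 (AT5G42540) spans 17007366 to 17014846 on chromosome 5 with 21 introns, XRN3 (AT1G75660) 28408134 to 28415118 on chromosome 1 with 22 introns and XRN4 (AT1G54490) 20350109 to 20356916 on chromosome 1 with 21 introns, also on the plus strand. HEN2 overlaps AT2G07000 on the other strand, and the table's interval for XRN4 is shared with 2 other loci. The labels and processing notes do not give the use of strand in counting, so the values of HEN2 and XRN4 are uncertain, and reads of VCS may have been divided with its neighbouring copy VCR.

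**Figure D1:**
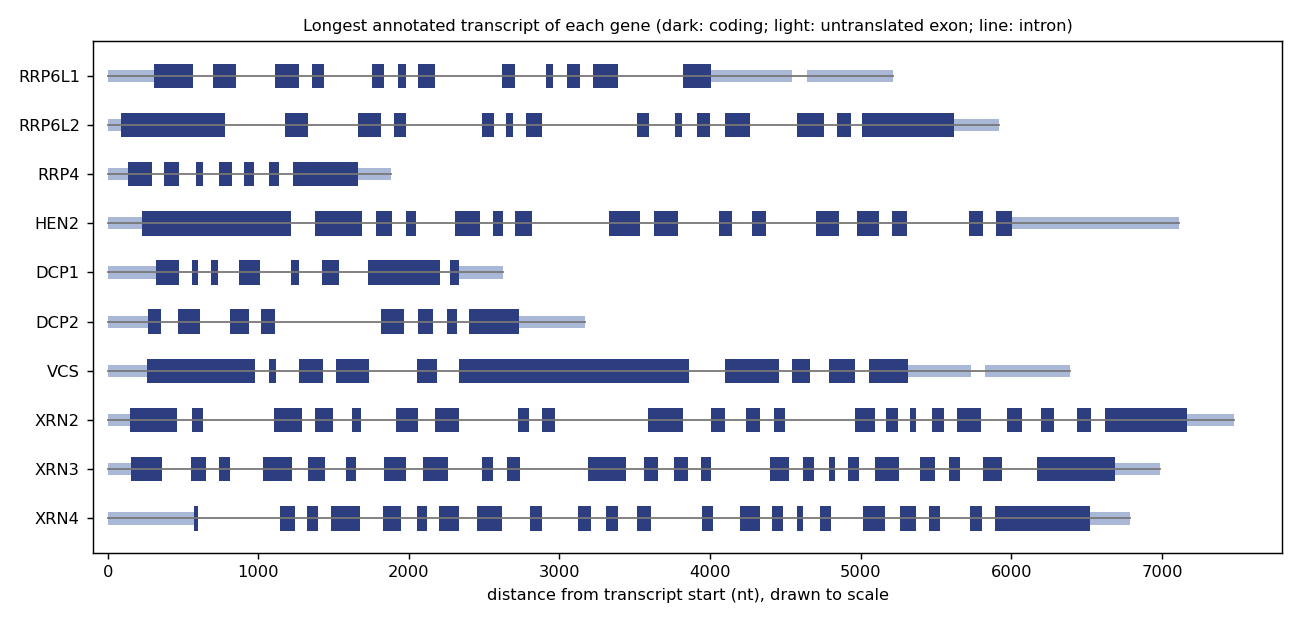
Exons and introns of the longest annotated transcript of the 10 genes, drawn from the transcript start with distance in nt on the x axis (dark boxes coding, light boxes untranslated, lines introns). RRP4 has the fewest introns, 6, and XRN3 the most, 22.

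Since lariats come from introns, the last 50 bases of introns are shown, where the branchpoint of a plant intron usually lies. They were read from the TAIR10.1 sequence on the strand of the gene, 5′ to 3′, and capitals mark CTNAC, a form of the plant branchpoint motif, searched on that strand only and not in the last 10 bases. For RRP6L1, the gene on which the results below turn, the 4 of its 11 introns within the coding sequence that hold the motif were:
RRP6L1 intron 5 (94 nt, chr1:20324857-20324906, plus strand): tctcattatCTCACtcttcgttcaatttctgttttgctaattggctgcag
RRP6L1 intron 6 (82 nt, chr1:20324990-20325039, plus strand): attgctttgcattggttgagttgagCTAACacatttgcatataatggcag
RRP6L1 intron 9 (92 nt, chr1:20325975-20326024, plus strand): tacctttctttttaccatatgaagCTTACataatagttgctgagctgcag
RRP6L1 intron 10 (86 nt, chr1:20326149-20326198, plus strand): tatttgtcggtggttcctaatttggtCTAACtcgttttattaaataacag
The longest coding intron of RRP6L1, of its relative RRP6L2 and of the 3 other genes that passed the test with RNase R ended as follows:
RRP6L1 intron 7 (449 nt, chr1:20325548-20325597, plus strand): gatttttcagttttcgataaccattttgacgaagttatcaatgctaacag
RRP6L2 intron 7 (627 nt, chr5:14031981-14032030, minus strand): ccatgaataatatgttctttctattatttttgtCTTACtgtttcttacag
DCP2 intron 4 (701 nt, chr5:4369027-4369076, plus strand): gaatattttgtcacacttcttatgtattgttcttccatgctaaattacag
VCS intron 4 (320 nt, chr3:4305829-4305878, plus strand): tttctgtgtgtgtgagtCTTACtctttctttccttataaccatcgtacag
XRN2 intron 9 (616 nt, chr5:17010903-17010952, plus strand): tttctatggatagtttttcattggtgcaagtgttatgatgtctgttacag

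In the short RRP6L1 introns 6, 9 and 10 the motif ended 20, 21 and 19 bases before the end of the intron, and in intron 5 it ended 36 bases before. Over all introns of the longest transcripts, 4 of 12 in RRP6L1 held it, 4 of 13 in RRP6L2, 2 of 7 in DCP2, 3 of 10 in VCS and 3 of 21 in XRN2. The 10 genes together had it in 26 of 134 introns (19.4%), and all protein-coding genes in 16871 of 115326 introns (14.6%). A match describes letters and not a branchpoint, and the table gives 1 value per locus, so none of the levels below belongs to a single intron.

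Without RNase R, the comparison of genotypes asked which of these genes had a different RNA level in mutant inflorescences. None of the 10 passed the test (limma on log2(FPKM + 1), Benjamini-Hochberg adjusted over all loci tested, threshold 0.05), against 17.5% of all loci tested that were called. At an unadjusted p under 0.05 there was 1 of the 10, DCP1, beside 4479 of the 14351 loci tested. The median log2 fold change (dbr1-2 minus Col-0) of the 10 was 0.0017, beside 0.13 over all loci tested.

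Of the exosome genes, RRP6L1, a nuclear relative of the yeast exonuclease Rrp6, had 2.14 and 2.03 FPKM in dbr1-2 and 1.96 and 1.94 FPKM in Col-0. RRP6L2, a nuclear relative of the same enzyme, had 3.80 and 3.54 FPKM in dbr1-2 and 4.00 and 3.75 FPKM in Col-0. The libraries of the genotypes overlapped for RRP6L2 and lay slightly apart for RRP6L1. RRP4, a subunit of the cap of the ring, had 2.52 and 2.69 FPKM in dbr1-2 and 2.74 and 2.91 FPKM in Col-0. HEN2, the helicase of the nucleoplasm, had 1.62 and 1.81 FPKM in dbr1-2 and 1.99 and 2.11 FPKM in Col-0. Both mutant libraries were below both wild-type libraries for RRP4 and HEN2, but the log2 fold changes did not pass (−0.084, SE 0.12, limma adjusted p = 0.691, and −0.17, SE 0.10, adjusted p = 0.315).

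For the 3 decapping genes, as for 56.1% of all loci tested, both mutant libraries were above both wild-type libraries, and none of the 3 passed. DCP2, the enzyme that cleaves the cap, had 2.59 and 2.32 FPKM in dbr1-2 and 2.11 and 1.89 FPKM in Col-0 (log2 fold change 0.20, SE 0.11, limma adjusted p = 0.237). DCP1, its coactivator, had 4.37 and 4.53 FPKM in dbr1-2 and 3.49 and 3.66 FPKM in Col-0. Its log2 fold change of 0.25 (SE 0.10, 95% interval 0.018 to 0.49) did not pass after adjustment over all loci (limma adjusted p = 0.134). In a fit of only the 4 libraries without RNase R, the log2 fold change of DCP1 was called (limma adjusted p = 0.0214). That fit called 40.7% of all loci tested, against 17.5% in the main fit. VCS, the scaffold on which the complex assembles, had 9.40 and 9.93 FPKM in dbr1-2 and 8.40 and 9.28 FPKM in Col-0, a log2 difference of 0.12 (SE 0.10, limma adjusted p = 0.475).

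Among the exonucleases, XRN3, which is nuclear and essential, had 6.59 and 7.26 FPKM in dbr1-2 and 5.88 and 6.54 FPKM in Col-0. XRN2, its nuclear relative that acts in ribosomal RNA processing, had 4.66 and 4.61 FPKM in dbr1-2 and 5.15 and 5.21 FPKM in Col-0. XRN4, the cytoplasmic enzyme, had 3.98 and 4.03 FPKM in dbr1-2 and 4.11 and 4.44 FPKM in Col-0. Both mutant libraries were lower for XRN2 and XRN4 and both higher for XRN3, by log2 differences of −0.13, −0.075 and 0.14, with 95% intervals that all included 0. Over the 10 genes, 5 had both dbr1-2 libraries above both Col-0 libraries and 4 had both below, beside 56.1% and 17.1% of all loci tested. By level, VCS, XRN3 and XRN2 were the highest in both genotypes without RNase R, in that order and without overlap between neighbours. RRP6L1 was the last but one in dbr1-2 and the last in Col-0, where its range overlapped that of DCP2.

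**Figure D2:**
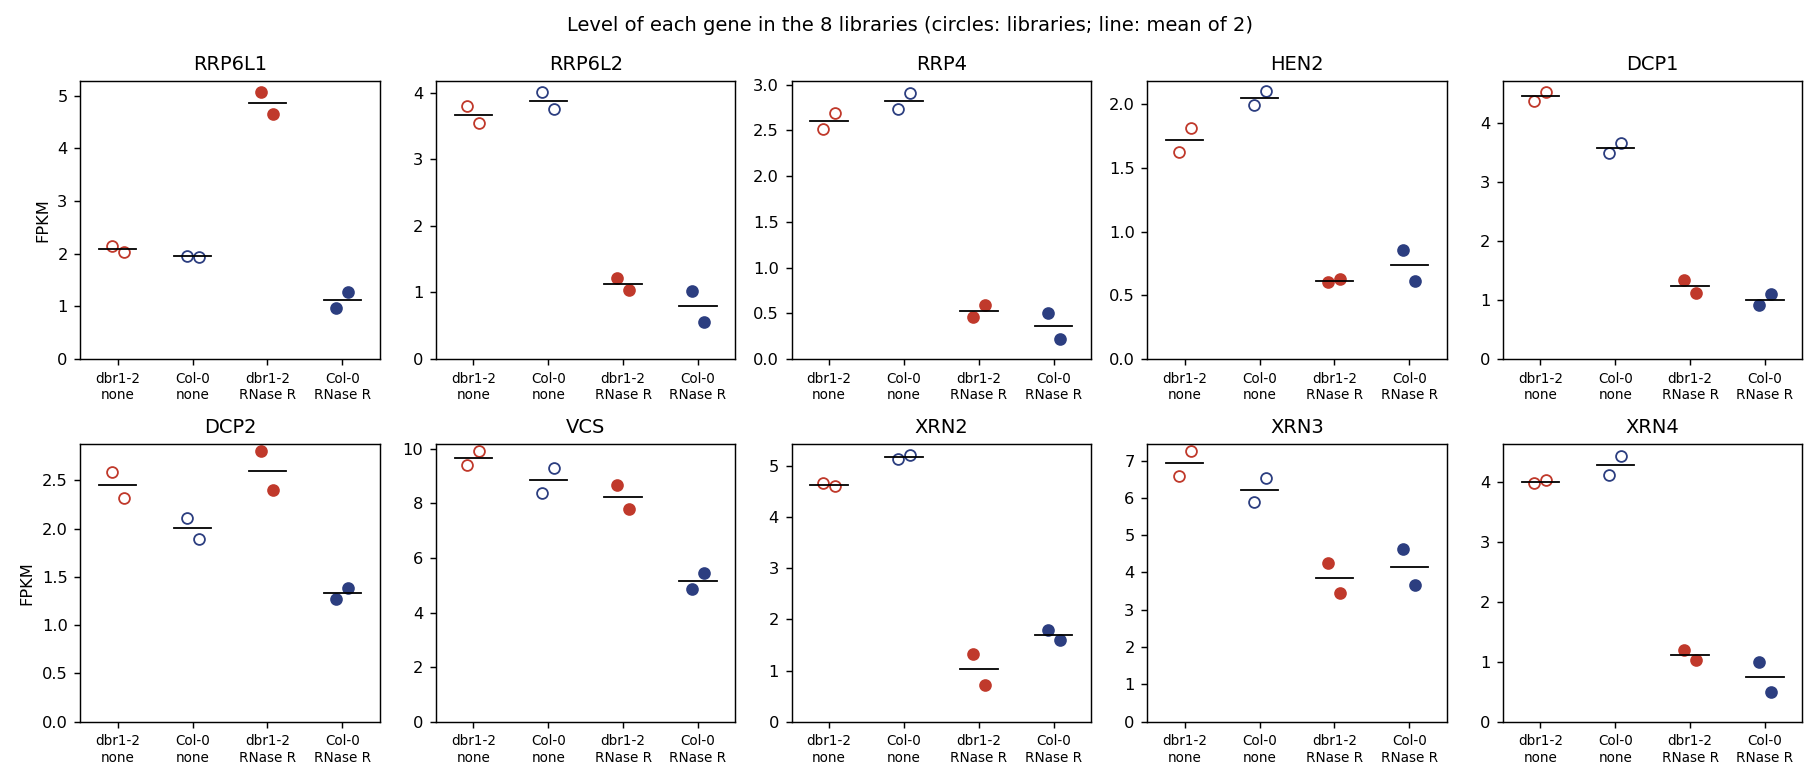
FPKM of the 10 genes in each of the 8 libraries (y axis, FPKM from 0, own scale per gene; x axis, group). Open circles are libraries without RNase R, filled circles those with it, red dbr1-2 and blue Col-0, and lines are means of 2 libraries. RRP6L1 in dbr1-2 with RNase R, at 4.66 and 5.07 FPKM, lies above the other 3 groups.

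With RNase R, the same comparison concerns the RNA that remained after digestion. RRP6L1, DCP2 and VCS were higher in dbr1-2 and XRN2 was lower, so 4 of 10 were called, against 37.0% of all loci tested (29.9% higher and 7.09% lower). The share of members is thus near that of all loci. In fits of only the 4 libraries compared, 3 of 10 were called with RNase R and 1 of 10 without it. Of all loci those fits called 18.3% with RNase R and 40.7% without it. That order is the reverse of the main fit, where all groups share 1 spread, so numbers called with and without RNase R depend on this sharing. The median log2 fold change of the 10 was 0.21, beside 0.15 over all loci.

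RRP6L1 showed the largest of these differences among the 10. It had 5.07 and 4.66 FPKM in dbr1-2 with RNase R and 0.975 and 1.27 FPKM in Col-0 after the same digestion. Every mutant library exceeded every wild-type library, and the mean was 4.33 times as high in dbr1-2 (log2 fold change 1.47, SE 0.10, 95% interval 1.23 to 1.71, limma adjusted p = 4.57e-05). These levels stood for about 170 and 160 reads in dbr1-2 and about 30 reads in each Col-0 library. RRP6L1 remained called in all 16 alternatives run, with log2 fold changes of 0.73 to 2.03 and limma adjusted p of 7.42e-05 to 0.00845. They include a fit with the year in the library tags as a covariate. With RNase R this year coincides with genotype, so that fit cannot tell year and genotype apart.

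The other 3 exosome genes did not pass. After digestion RRP6L2 had 1.21 and 1.04 FPKM in dbr1-2 and 1.02 and 0.561 FPKM in Col-0 (log2 fold change 0.26, SE 0.14, limma adjusted p = 0.177). RRP4 had 0.455 and 0.591 FPKM in dbr1-2 and 0.499 and 0.218 FPKM in Col-0, which stood for only 2 to 9 reads a library. HEN2 had 0.605 and 0.625 FPKM in dbr1-2 and 0.859 and 0.614 FPKM in Col-0. The groups overlapped for RRP4 and HEN2 (log2 fold changes 0.17, SE 0.12, limma adjusted p = 0.311, and −0.10, SE 0.10, adjusted p = 0.486). Without Col-0 RNase R replicate 1, RRP6L2 was called (log2 fold change 0.45, limma adjusted p = 0.0235).

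Of the decapping genes, DCP2 after digestion had 2.80 and 2.40 FPKM in dbr1-2 and 1.27 and 1.39 FPKM in Col-0, 1.95 times as much in the mutant. The log2 fold change was 0.63 (SE 0.11, limma adjusted p = 0.00264). VCS had 8.68 and 7.79 FPKM in dbr1-2 and 4.87 and 5.44 FPKM in Col-0, 1.60 times as much in the mutant (log2 fold change 0.58, SE 0.10, limma adjusted p = 0.00298). For both genes the libraries of the genotypes lay apart. DCP1 had 1.34 and 1.12 FPKM in dbr1-2 and 0.910 and 1.1 FPKM in Col-0, and its log2 fold change of 0.16 (SE 0.10) did not pass (limma adjusted p = 0.269). The calls of DCP2 and VCS were lost with TPM in place of FPKM (log2 fold changes 0.25 and 0.28, limma adjusted p = 0.277 and 0.425). They were also lost with organelle and ribosomal RNA loci removed (0.20 and 0.19, adjusted p = 0.785 and 0.936). Both settings lower the values with RNase R before 1 is added, which shrinks log2 fold changes of genes at such levels. How far this shrinkage accounts for the lost calls was not tested. The call of DCP2 was also lost with the tag year as a covariate (adjusted p = 0.0744). With RNase R both dbr1-2 libraries carry tags of the earlier year and both Col-0 libraries tags of the later year, so genotype and tag year cannot be told apart within them.

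Of the exonucleases, XRN2 after digestion had 1.32 and 0.723 FPKM in dbr1-2 and 1.80 and 1.59 FPKM in Col-0, a mean 0.604 times that of Col-0. Its log2 fold change of −0.43 (SE 0.14) was just past the threshold (limma adjusted p = 0.0479) and was called in 3 of 16 alternatives. XRN3 had 4.26 and 3.45 FPKM in dbr1-2 and 4.63 and 3.66 FPKM in Col-0, and XRN4 had 1.19 and 1.04 FPKM in dbr1-2 and 1.00 and 0.493 FPKM in Col-0. XRN3 overlapped between the genotypes and XRN4 did not. Neither passed (log2 fold changes −0.083, SE 0.13, limma adjusted p = 0.661, and 0.29, SE 0.14, adjusted p = 0.154). Leaving out dbr1-2 RNase R replicate 2 ended the call of XRN2 (log2 fold change −0.21), as did leaving out Col-0 RNase R replicate 1 (−0.37) or replicate 2 (−0.48). Leaving out any of the 4 libraries without RNase R also ended the call, though the log2 fold change stayed at −0.43. Those 4 libraries enter this comparison only through the spread shared by all groups. Without Col-0 RNase R replicate 1, XRN4 was called (log2 fold change 0.50, limma adjusted p = 0.0138).

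Both dbr1-2 libraries exceeded both Col-0 libraries with RNase R for 6 of the 10 genes and lay below them for 1, beside 44.9% and 16.7% of all loci tested. In the order of levels with RNase R, RRP6L1 in dbr1-2 stood between VCS and XRN3, apart from both, and in Col-0 it stood behind VCS, XRN3, XRN2 and DCP2, where its range overlapped that of DCP1. In dbr1-2, DCP2 came after XRN3, apart from it and from DCP1. DCP1, RRP6L2, XRN4 and XRN2 followed there at levels that overlapped between neighbours.

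**Figure D3:**
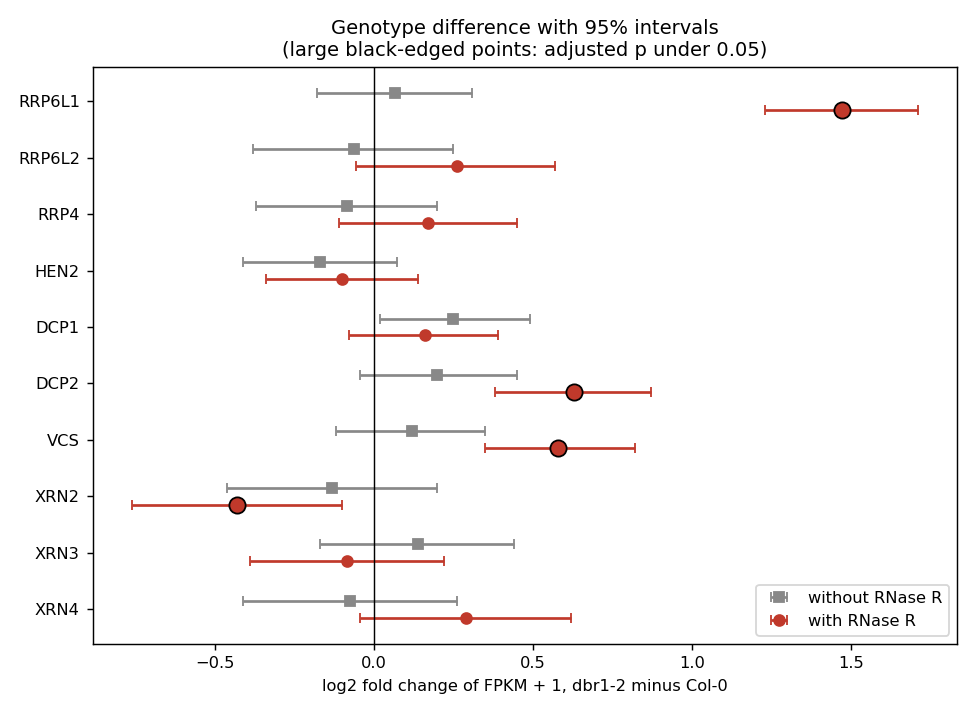
Log2 fold change of FPKM + 1, dbr1-2 minus Col-0 (x axis), with 95% intervals from limma for each of the 10 genes (y axis), without RNase R (grey squares) and with it (red circles). With RNase R the interval of RRP6L1 runs from 1.23 to 1.71 and lies apart from those of the other 9 genes, and large black-edged points have an adjusted p under 0.05.

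The effect of RNase R within each genotype was taken from the same fit. Values are relative within a library, so a higher value does not mean more RNA. Summed FPKM was larger with RNase R, so a higher FPKM need not be a larger share of that sum either. In dbr1-2, 7 of the 10 genes were lower with RNase R and RRP6L1 was higher, so 8 were called, against 84.3% of all loci tested (69.3% lower and 15.0% higher). In Col-0 all 10 were called lower, against 79.3% of all loci called (71.0% lower and 8.27% higher). In dbr1-2 both libraries with RNase R lay above both without it for 1 gene and below for 8, beside 17.7% and 74.6% of all loci. In Col-0 they lay below for all 10, beside 79.0%. The median log2 fold change of the 10 was −0.94 in dbr1-2 and −1.0 in Col-0, beside −0.69 and −0.66 over all loci.

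RRP6L1 in dbr1-2 with RNase R stood at 233% of its mean FPKM without it (log2 fold change 0.93, SE 0.10, limma adjusted p = 8.57e-05). In Col-0 it stood at 57.6% (log2 fold change −0.48, SE 0.10, adjusted p = 0.0034). The direction depended on the scaling in both genotypes. In Col-0 the log2 fold change was 0.11 with median-ratio scaling (limma adjusted p = 0.383). In dbr1-2 the log2 fold change was 1.61 with median-ratio scaling, −1.62 with TPM and −1.67 with organelle and ribosomal RNA loci removed. Relative to the median of all loci under the same scaling, RRP6L1 in dbr1-2 was above by 1.62 on the log2 scale with FPKM, by 1.69 with median-ratio scaling, by 1.07 with TPM and by 1.09 with those loci removed.

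DCP2 with RNase R stood at 106% of its level without it in dbr1-2 and at 66.5% in Col-0, and VCS at 85.2% in dbr1-2 and 58.3% in Col-0. In dbr1-2 neither change passed (log2 fold changes 0.059, limma adjusted p = 0.611, and −0.21, adjusted p = 0.0842), while in Col-0 both fell (−0.36, adjusted p = 0.0129, and −0.68, adjusted p = 0.000442). In dbr1-2 other scalings brought calls in opposite directions. With median-ratio scaling DCP2 was higher with RNase R (0.72, adjusted p = 0.000458) and so was VCS (0.64, adjusted p = 0.000608), and with TPM both were called lower (−2.25 and −3.18). In Col-0 neither passed with median-ratio scaling (0.25, adjusted p = 0.0557, for DCP2 and 0.18, adjusted p = 0.12, for VCS), and DCP2 did not pass with the tag year as a covariate (adjusted p = 0.0594). Relative to the median of all loci in dbr1-2, DCP2 lay above it with all 4 scalings, by 0.43 to 0.81, and VCS above it with FPKM (0.48) and median-ratio scaling (0.73) and below it with TPM (−0.50). Leaving out Col-0 replicate 1 without RNase R ended the call of DCP2 in Col-0 (adjusted p = 0.0913), and leaving out dbr1-2 RNase R replicate 1 brought a call of VCS in dbr1-2 (−0.28, adjusted p = 0.0457).

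The remaining 7 genes fell in both genotypes. Percentages here are ratios of mean FPKM and not the part of the RNA that survived digestion. They depend on the scaling. For RRP4 in dbr1-2 the log2 fold change was −1.24 with FPKM, −0.71 with median-ratio scaling and −2.89 with TPM. RRP4 stood at 20.1% in dbr1-2 and 12.7% in Col-0, and XRN4 at 27.9% in dbr1-2 and 17.5% in Col-0. Without Col-0 RNase R replicate 1 these Col-0 percentages were 7.71% for RRP4 and 11.5% for XRN4. RRP6L2 stood at 30.7% in dbr1-2 and 20.4% in Col-0. HEN2 stood at 35.8% in dbr1-2 and 35.9% in Col-0, and DCP1 at 27.7% in dbr1-2 and 28.1% in Col-0. XRN2 stood at 22.1% in dbr1-2 and 32.7% in Col-0, and XRN3 at 55.6% in dbr1-2 and 66.7% in Col-0. The medians of all loci tested were 47.3% in dbr1-2 and 47.2% in Col-0. On the log2 scale XRN3 changed sides of the median with the scaling. Its difference from the median in dbr1-2 was −0.019 with FPKM, 0.17 with median-ratio scaling, −0.69 with TPM and −0.68 with organelle and ribosomal RNA loci removed. In Col-0 it was 0.17, 0.40, −0.50 and −0.44 under those 4 settings. The fall of XRN3 in Col-0 did not pass without Col-0 replicate 2 without RNase R (log2 fold change −0.43, limma adjusted p = 0.0651) or without Col-0 RNase R replicate 2 (−0.36, adjusted p = 0.0551). With median-ratio scaling 5 genes were called in Col-0 in place of 10, beside 59.1% of all loci in place of 79.3%, and in dbr1-2 HEN2 (−0.26, adjusted p = 0.0935) and XRN3 (0.082, adjusted p = 0.607) did not pass.

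**Figure D4:**
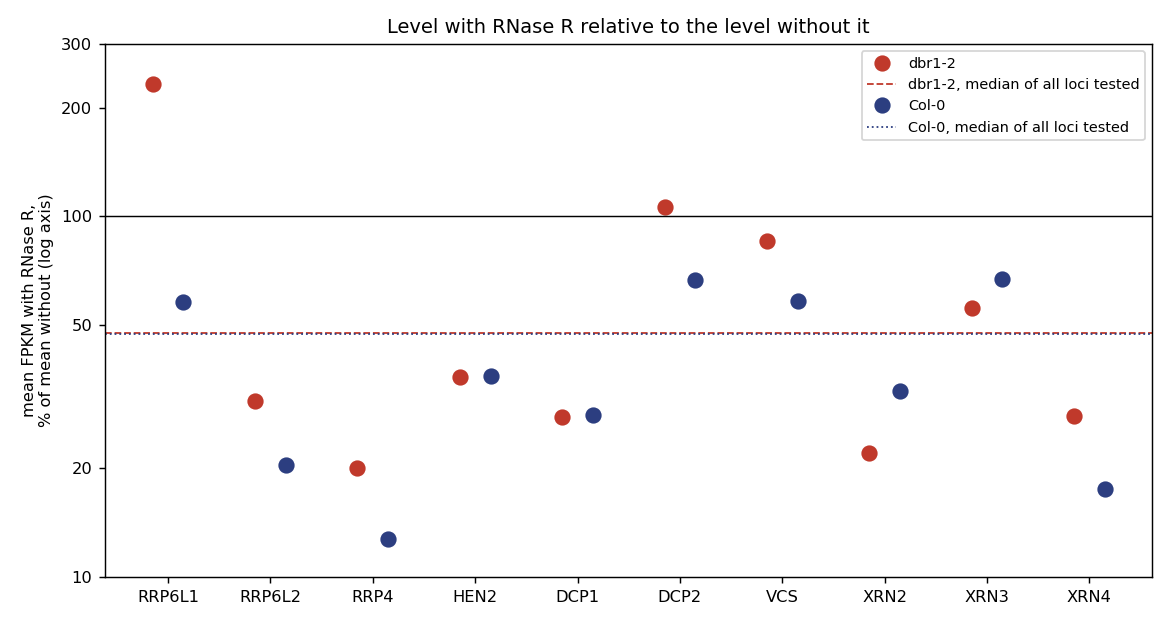
Mean FPKM with RNase R as a percentage of mean FPKM without it (y axis, log scale) for the 10 genes (x axis), dbr1-2 in red to the left of Col-0 in blue; each point is a ratio of means of 2 libraries, and dashed and dotted lines are medians of all loci tested. RRP6L1 in dbr1-2 stands at 233%, and the next highest point is DCP2 in dbr1-2 at 106%.

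Whether the genotype difference itself differed with and without RNase R was tested by the interaction term. It was called for 1 of the 10 genes, RRP6L1 (log2 difference 1.40, SE 0.15, 95% interval 1.06 to 1.75, limma adjusted p = 0.00117), against 13.7% of all loci tested (10.8% higher and 2.99% lower). The call held in all 15 alternatives run, with values of 0.78 to 1.94. It was just past the threshold with organelle and ribosomal RNA loci removed (0.78, limma adjusted p = 0.0444). The 15 alternatives include the fit with the tag year as a covariate, which cannot tell year and genotype apart with RNase R. VCS (0.47, SE 0.14, limma adjusted p = 0.07) and DCP2 (0.42, SE 0.15, adjusted p = 0.106) did not pass, so a genotype difference of these genes with RNase R was not shown to exceed that without it. XRN2 had −0.30 (SE 0.20, adjusted p = 0.387), and the intervals of the other 6 genes all included 0. Leaving out a library called 1 more gene in 3 cases. These were XRN2 without dbr1-2 RNase R replicate 1 (−0.51, adjusted p = 0.0388), VCS without dbr1-2 RNase R replicate 2 (0.54, adjusted p = 0.0413) and XRN4 without Col-0 RNase R replicate 1 (0.58, adjusted p = 0.0411).

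The table holds a second locus under the name of XRN4, whose number places it on the strand opposite XRN4 and which shares the interval of XRN4 and AT1G54500. With RNase R it had 34.6 and 36.3 FPKM in dbr1-2 and 9.37 and 5.72 FPKM in Col-0. Before digestion it had 1.25 and 1.05 FPKM in dbr1-2 and 0.610 and 0.460 FPKM in Col-0. The locus of XRN4 itself never exceeded 1.19 FPKM with RNase R. For the second locus the genotype difference with RNase R was 2.13 on the log2 scale (SE 0.19, limma adjusted p = 0.000117) and the interaction 1.64 (SE 0.26, adjusted p = 0.00627). The interaction was called in 12 of 15 alternatives, and not with a pseudocount of 0.1 (adjusted p = 0.0619), organelle and ribosomal RNA loci removed (0.84, adjusted p = 0.0541) or the tag year as a covariate (adjusted p = 0.0664). Which gene these reads belong to was not tested.

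By likeness of log2(FPKM + 1) over the 8 libraries, the 3 loci with 1 protein-coding name most like RRP6L1 were AT3G61950 (Pearson r 0.996), AT1G48230 (0.995) and AT1G63490 (0.994). After digestion AT3G61950 had 9.40 and 9.76 FPKM in dbr1-2 and 2.56 and 3.05 FPKM in Col-0. Likewise AT1G48230 had 14.3 and 11.6 FPKM in dbr1-2 and 2.21 and 2.32 FPKM in Col-0. The 8 points share 4 groups. Of the 14351 loci tested, 269 besides RRP6L1 reached r of at least 0.95 and 12 reached at least 0.99, so RRP6L1 was not alone in this pattern.

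Of 32 other genes of these pathways, 29 were in the table under a name of their own and 28 were tested. Without RNase R, 3 of the 28 were higher in dbr1-2 and 0 lower (13 had a negative log2 fold change), beside 14.2% and 3.32% of all loci tested. They were 2 of 10 decapping activators and SOV, which stands in the list of exosome genes but acts apart from the exosome. PATH1, a relative of the decapping activator PAT1, had 5.66 and 5.89 FPKM in dbr1-2 and 3.55 and 3.83 FPKM in Col-0 (log2 fold change 0.53, SE 0.11, limma adjusted p = 0.018). Its relative PATH2 had 3.92 and 3.92 FPKM in dbr1-2 and 2.07 and 2.44 FPKM in Col-0 (0.60, SE 0.14, adjusted p = 0.0235). SOV, a cytoplasmic exonuclease related to RRP44, had 3.90 and 4.07 FPKM in dbr1-2 and 2.52 and 2.90 FPKM in Col-0 (0.43, SE 0.11, adjusted p = 0.0343). For each, the genotypes lay apart, but none of the 3 was called with median-ratio scaling, which called 8.34% of all loci tested against 17.5% in the main fit. The calls also did not hold with any 1 library without RNase R left out, which leaves 1 library in a group. With each of the 8 libraries left out in turn, log2 fold changes were 0.49 to 0.58 for PATH1, 0.52 to 0.68 for PATH2 and 0.35 to 0.50 for SOV.

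With RNase R, 8 of the 28 were higher in dbr1-2 and 2 lower, of which the 4 with the smallest p are described. SOP1, a zinc-finger protein that works with the nuclear exosome, had 7.00 and 6.96 FPKM in dbr1-2 and 2.10 and 2.06 FPKM in Col-0 (log2 fold change 1.37, SE 0.089, limma adjusted p = 3.05e-05). FRY1, a phosphatase whose loss represses the XRN enzymes, had 7.67 and 6.88 FPKM in dbr1-2 and 3.13 and 3.62 FPKM in Col-0 (0.92, SE 0.11, adjusted p = 0.000448). PATH1 had 8.13 and 6.47 FPKM in dbr1-2 and 4.04 and 3.74 FPKM in Col-0, and LSM1B, a subunit of the LSM ring that promotes decapping, had 3.81 and 3.60 FPKM in dbr1-2 and 2.11 and 2.47 FPKM in Col-0. By group, 1 of 10 exosome subunits rose, 1 of 5 exosome cofactors rose and 1 fell, 4 of 10 decapping activators rose and 1 fell, and 2 of 3 genes beside the XRNs rose. The share of higher calls, 8 of 28, was near the 29.9% of all loci. The number called was 2 with TPM, 1 with organelle and ribosomal RNA loci removed and 3 with the tag year as a covariate. Of all loci, 12.0%, 7.44% and 16.9% were called in that order, against 37.0% in the main fit.

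The interaction was called for SOP1 (1.26, SE 0.13, limma adjusted p = 0.000895), FRY1 (0.89, SE 0.15, adjusted p = 0.00834) and LSM1A (0.66, SE 0.16, adjusted p = 0.0298), 3 of 28 higher and 0 lower, beside 10.8% and 2.99% of all loci tested. After digestion LSM1A, the partner copy of LSM1B, had 3.22 and 2.85 FPKM in dbr1-2 and 1.87 and 1.83 FPKM in Col-0, against before it 2.98 and 2.88 FPKM in dbr1-2 and 3.79 and 3.04 FPKM in Col-0. SOP1 without RNase R had 2.39 and 2.51 FPKM in dbr1-2 and 2.10 and 2.31 FPKM in Col-0, so its mutant libraries stood apart mainly after digestion, as those of RRP6L1 did. FRY1 was not called without dbr1-2 replicate 2 without RNase R (adjusted p = 0.0551) or without Col-0 replicate 1 without RNase R (adjusted p = 0.0526). LSM1A was not called without either dbr1-2 library lacking RNase R (adjusted p = 0.109 and 0.133), without Col-0 replicate 1 lacking it (0.131) or without either Col-0 RNase R library (0.0521 and 0.0592). None of the 3 was called with organelle and ribosomal RNA loci removed (adjusted p = 0.113 for SOP1, 0.468 for FRY1 and 0.484 for LSM1A). FRY1 and LSM1A were also lost with TPM (0.0598 and 0.102) and with the tag year as a covariate (0.0844 and 0.216), and LSM1A with no filter (0.0551).

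With RNase R, 17 of the 28 were lower and 5 higher in dbr1-2, and 17 were lower and 0 higher in Col-0 (3 had a positive log2 fold change). Over all loci, 69.3% were lower and 15.0% higher in dbr1-2, and 71.0% and 8.27% in Col-0. With TPM all 28 of these genes were called in Col-0, as were 98.6% of all loci. RH6, RH8 and RH12, helicases of the DDX6 family that promote decapping, fell in both genotypes. RH6 had 1.20 and 0.855 FPKM with RNase R and 7.29 and 6.95 FPKM without it in dbr1-2, and 0.698 and 0.471 FPKM with it and 6.02 and 6.25 FPKM without it in Col-0. Its log2 fold changes were −2.0 in dbr1-2 and −2.18 in Col-0. RH12 fell by 1.39 in dbr1-2 and by 1.07 in Col-0 on the log2 scale, and RH8 fell by 1.59 in dbr1-2 and by 1.52 in Col-0. MTR4, a helicase that serves the exosome in the nucleolus, had 1.17 and 0.667 FPKM with RNase R and 3.49 and 3.79 FPKM without it in Col-0 (log2 fold change −1.29). SOP1 in dbr1-2 was higher with RNase R (1.21, SE 0.089, limma adjusted p = 1.06e-05), a direction that turned to −1.50 with TPM and to −1.56 with organelle and ribosomal RNA loci removed.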

How the data were processed

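Stranded libraries were made from Trizol-extracted, ribosomal RNA-depleted RNA for Illumina sequencing (HiSeq), as the labels' protocols say. TopHat2 2.0.13, Cufflinks 2.2.1, Cuffnorm 2.2.1 and TAIR10 are named per the submitters' processing notes, without settings. The authors deposited FPKM, 1 value per locus and library, and the read depth was only estimated: 69.5% to 97.8% of low values lay within 0.05 of whole reads. FPKM is set by the rest of the library, and its total was 2796000 to 4003000 in libraries with RNase R and 295500 to 384500 in the others. Removal of mRNA is also named in 7 of the 8 tags, but not in that of dbr1-2 RNase R replicate 1.

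Tests used limma 3.58.1 in R 4.3.3 (lmFit, contrasts, eBayes with a trend, two-sided) on log2(FPKM + 1) over 14351 loci, with all 8 libraries in 1 fit of 4 group means and 4 residual degrees of freedom, and Benjamini-Hochberg adjustment within each of 5 comparisons at 0.05. All groups shared 1 spread per locus in this fit. Replicates were less alike with RNase R (Spearman rho 0.949 in dbr1-2 and 0.932 in Col-0) than without it (0.986 and 0.983). The log2(FPKM + 1) scale understates changes of low genes. With RNase R this is stronger under TPM or with organelle and ribosomal RNA loci removed, since both lower those values before 1 is added. The script was tested on simulated data. Tables and plots used Python 3.11.15, pandas 2.3.3, numpy 2.4.6 and matplotlib 3.10.9. Locus names were matched to TAIR10.1, and strand was inferred from locus numbering, which followed the annotated strand for 99.92% of 30266 loci. Without RNase R, libraries of the same replicate number share a tag year, so the number pairs them there: their deviations from the group means correlated at 0.303 across loci, against −0.0506 to 0.0835 for the other pairs of groups. The text names all 10 members, DBR1, the called pathway genes with the smallest p (up to 4 per comparison) and the 3 loci most like RRP6L1. Members and lists were chosen with earlier results of these data known. RRP40A and CSL4 share a locus name with other genes, RRP40B was below the filter, and URT1 was not analysed here.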

Additional observations from a re-analysis of the deposited data

Results flagged for a closer look

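The genotype difference changed with RNase R for RRP6L1 (interaction 1.40 on the log2 scale), SOP1 (1.26), FRY1 (0.89) and LSM1A (0.66), each by limma's test of the difference itself. RRP6L1 was called in 15 of 15 alternatives, SOP1 in 14, FRY1 in 10 and LSM1A in 6. Of these 4 genes only RRP6L1 was called with organelle and ribosomal RNA loci removed, just past the threshold (limma adjusted p = 0.0444, against 0.113 for SOP1). The alternative with the tag year as a covariate cannot tell year and genotype apart with RNase R. Outside the members, the second locus under the name of XRN4 was higher in dbr1-2 than in Col-0 with RNase R, by 2.13 on the log2 scale.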

How the results depend on the processing

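The number of members called without RNase R was 0, and 1 with only the 4 libraries compared, beside 17.5% and 40.7% of all loci tested. With RNase R it was 4, against 1 with TPM, 1 with organelle and ribosomal RNA loci removed and 2 with the tag year as a covariate. For RNase R in Col-0 it was 10, against 5 with median-ratio scaling, and for RNase R in dbr1-2 it was 8. The interaction called 1. Except for genotype without RNase R, each of these numbers also moved when some libraries were left out, which leaves 1 library in a group. The replicate block, which pairs libraries by number, changed no member's call. It called 0 and 4 members between genotypes, 8 and 10 for RNase R and 1 for the interaction. Over all loci the block called 16.3% and 36.3% between genotypes, 84.5% and 79.3% for RNase R and 13.3% for the interaction. Of all loci tested, 37.0% were called between genotypes with RNase R, against 12.0% with TPM and 16.9% with the tag year. With organelle and ribosomal RNA loci removed that share was 7.44%. For RNase R in Col-0 the share was 79.3%, against 59.1% with median-ratio scaling.

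Signs turned in these cases, in log2 units. For genotype without RNase R, RRP6L1 was −0.041 with median-ratio scaling, −0.043 with TPM and −0.046 with organelle and ribosomal RNA loci removed, VCS −0.033, −0.019 and −0.022 in that order, and XRN3 −0.0082 with median-ratio scaling. With RNase R, removal of those loci gave RRP6L2 −0.0018 and DCP1 −0.027. XRN3 was 0.043 with the tag year and −0.22 to 0.053 with libraries left out (0.038 without dbr1-2 RNase R replicate 2 and 0.053 without Col-0 RNase R replicate 1), and HEN2 −0.20 to 0.00089 (highest without Col-0 RNase R replicate 1). For RNase R, TPM and removal of those loci gave −1.62 and −1.67 for RRP6L1, −2.25 and −2.32 for DCP2 and −1.50 and −1.56 for SOP1 in dbr1-2. DCP2 ranged there from −0.022, without dbr1-2 RNase R replicate 1, to 0.14 with libraries left out. Median-ratio scaling gave 0.64 for VCS and 0.082 for XRN3 in dbr1-2, and 0.11 for RRP6L1, 0.25 for DCP2, 0.18 for VCS and 0.33 for XRN3 in Col-0. For the interaction, XRN2 was 0.014 with TPM and HEN2 −0.035 (without Col-0 RNase R replicate 2) to 0.17 with libraries left out. The causes were not tested. Over all values of members under alternatives, 730 kept direction and side of the threshold, 26 turned, 24 lost and 10 gained a call.

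Scaling moved the median of all loci for RNase R from −0.69 to −0.088 with median ratios and −2.69 with TPM in dbr1-2. Without RNase R, higher loci were 81.1% of calls between genotypes, and 63.5% with median-ratio scaling, 59.5% with TPM and 61.2% with organelle and ribosomal RNA loci removed. With RNase R they were 80.9%, and 64.0% with median-ratio scaling. Over all loci, calls between genotypes with RNase R numbered 5315, against 1715 with TPM, 1058 with those loci removed, 2633 with the 4 libraries compared and 2423 with the tag year. Without RNase R they numbered 2518, against 1467 with a pseudocount of 0.1, 1197 with median-ratio scaling, 5847 with the 4 libraries compared and 819 to 3454 with libraries left out. The interaction had 1973, against 1075 with those loci removed, 676 with the tag year and 863 to 2711 with libraries left out. Of the other pathway genes, 3 were called without RNase R and 0 to 1 with median-ratio scaling, no filter, a pseudocount of 0.1 or the tag year, and 10 with RNase R, against 3 with the 4 libraries compared. Without RNase R 17.5% of all loci were called, and 8.34%, 9.08%, 10.2% and 12.4% under those settings in that order. With RNase R it was 37.0%, against 18.3% with the 4 libraries compared. The interaction called 3 of the other pathway genes, against 1 with TPM, 0 with organelle and ribosomal RNA loci removed and 1 with the tag year. Of all loci it called 13.7%, against 11.5%, 7.56% and 4.71% in that order. With 2 libraries a group, precision is limited, and about 14 to 67 reads a library stood behind RRP6L2, HEN2, DCP1, DCP2, XRN2 and XRN4 with RNase R.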
